A study of Mus musculus with 54 samples.

Results

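The genes described here are 9 that write, copy or remove methyl groups on DNA in the mouse: the oxygenases Tet1, Tet2 and Tet3, the repair glycosylase Tdg, the de novo methyltransferases Dnmt3a and Dnmt3b with their partner Dnmt3l, and the maintenance methyltransferase Dnmt1 with its guide Uhrf1. They were chosen by gene symbol from count tables of 26264 gene entries per tissue. All 9 were found, each as a single entry in the testis table and in the ovary table, and 9 of 9 passed the filter on low counts in every comparison. Dnmt3l and Uhrf1 are cofactors and carry no methyltransferase activity of their own.

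The count tables come from RNA sequencing of polyadenylated transcripts in 54 gonad libraries, which fall into 18 groups of 3 libraries (A, B and C), 9 groups per tissue. Mice of the first generation (F1) drank water with a mixture of the analgesics ibuprofen, its metabolite 2-hydroxyibuprofen and diclofenac, and the synthetic oestrogen 17a ethinyl-estradiol, starting in the womb at 8.5 days post-coitum and ending at sacrifice. Dose 1 held 11.3 ng/L ibuprofen, 90 ng/L of the metabolite, 22.5 ng/L diclofenac and 2.25 ng/L ethinyl-estradiol. Dose 2 held 113, 225, 112 and 45 ng/L of the same compounds, and control water held ethanol at 0.001%. F1 males were 10 weeks old and F1 females 8 weeks old at sampling. Animals of the second generation (F2) are labelled as untreated and came from crosses of F1 animals: control father with control mother, control father with a mother of dose 1 or dose 2, control mother with a father of dose 1 or dose 2, and both parents of dose 2. The age of F2 animals is given by the protocol shared by all samples and not separately. Strain is not given in the sources used here, and whether the 3 libraries of a group stem from different litters or animals is not stated. The p-values therefore reflect only how far these samples spread.

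DNA methylation of CpG sites is set de novo in germ cells by DNMT3A and DNMT3B with the help of DNMT3L, and is copied after replication by DNMT1, which UHRF1 brings to hemimethylated DNA. TET enzymes oxidise the methyl group step by step, and TDG excises the later oxidation products so that base repair can restore an unmodified cytosine. In the gonads these enzymes are known for the erasure and renewal of methylation, imprints included, on the way from primordial germ cells to sperm and oocytes.

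Promoter sequences are shown for 4 members on which the results below turn, to let their CpG content be compared. Tet1 differed between testis groups, and Dnmt3l was higher in testis than in ovary. Tdg passed the test threshold in 1 of 11 ovary comparisons, a result lost under most other settings. Uhrf1 tracked replication genes in ovary. The sequences are those of RefSeq, build GRCm38.p6, while the counts were made on mm39. Capitals mark CpG sites in the first 3 and an E2F-like motif, spelled TTTNNCGC, in Uhrf1. Each runs 5′ to 3′ and ends at the base before a transcription start. The Tet1 sequence is chr10:62887325-62887412 on the minus strand and holds 6 CpG sites in 88 bases, trimmed because 100 of the other bases of its window lie in an annotated Tet1 exon. Its full window of 250 bases holds 15 CpG sites. The Tdg sequence is chr10:82629588-82629837 on the plus strand and holds 19 CpG sites in 250 bases, of which 10 lie in an annotated Tdg exon. The Dnmt3l sequence is the second of its 3 starts, chr10:78049592-78049841 on the plus strand, with 4 CpG sites in 250 bases inside the gene and in no annotated exon. The Uhrf1 sequence is the second of its 2 starts, chr17:56304063-56304312 on the plus strand, with 30 CpG sites in 250 bases, also inside the gene and in no annotated exon.
Tet1: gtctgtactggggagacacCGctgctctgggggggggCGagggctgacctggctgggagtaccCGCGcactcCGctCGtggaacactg
Tdg: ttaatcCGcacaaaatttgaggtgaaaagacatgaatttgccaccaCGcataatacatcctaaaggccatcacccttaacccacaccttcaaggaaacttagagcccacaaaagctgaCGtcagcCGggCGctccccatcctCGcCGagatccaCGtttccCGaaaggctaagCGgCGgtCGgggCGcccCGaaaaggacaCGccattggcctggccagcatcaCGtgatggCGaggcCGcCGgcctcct
Dnmt3l start 2: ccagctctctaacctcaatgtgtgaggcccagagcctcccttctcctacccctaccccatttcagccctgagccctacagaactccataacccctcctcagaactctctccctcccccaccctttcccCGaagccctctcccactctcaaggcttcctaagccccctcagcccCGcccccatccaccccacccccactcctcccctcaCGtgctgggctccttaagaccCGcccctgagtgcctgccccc
Uhrf1 start 2: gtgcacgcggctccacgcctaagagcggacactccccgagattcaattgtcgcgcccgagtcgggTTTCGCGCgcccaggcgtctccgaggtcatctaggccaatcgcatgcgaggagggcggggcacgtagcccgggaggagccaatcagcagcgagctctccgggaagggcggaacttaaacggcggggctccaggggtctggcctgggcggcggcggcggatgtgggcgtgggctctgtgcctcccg
RefSeq gave windows for 9 of 9 members, 16 in all. Among 32851 such windows of 250 bases the median held 6 CpG sites. The full Tet1 window held 15, more than 72.7% of windows. The Tet2 window held 51, more than 99.9% of windows, and the 3 Dnmt3a windows held 38, 40 and 15. The 3 Dnmt3l windows held 5, 4 and 3, at or below the median. The motif TTTNNCGC was searched on both strands and occurs in 4.28% of all windows. It occurs in both Uhrf1 windows, with its first base 56 bases before start 1 and 185 bases before start 2, and in the window of the third Dnmt1 start as overlapping matches that begin 219 and 217 bases upstream, a window with 166 bases in an annotated Dnmt1 exon. The other members' windows hold no match. A match is a description of letters and not a binding site.

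Total counts ranged from 31.8 to 46.4 M per library in testis (median 37.7) and from 35.6 to 102 M in ovary (median 43.8). The tissue labels fitted their markers: Prm1, a sperm protamine, lay at 1799 to 6472 CPM (counts scaled to a common library total) in testis and at 0 to 0.791 in ovary, and Foxl2, a granulosa cell factor, lay at 163 to 302 in ovary and at 0 to 0.131 in testis. Ovary F1 control library A stood apart. An index that takes the median log2 level of long transcripts minus that of short ones was -1.044 there and -0.648 to 0.320 in the other 26 ovary libraries. Of the 6 oviduct epithelium markers the summed level was 1129 and 388 CPM in ovary F1 dose 2 libraries A and B, 152 in F1 control A, and 4.4 to 21.7 in the other ovary libraries. CPM below are counts scaled by library totals and TMM factors, and ± after a CPM is the SD with n = 3 libraries. A log2 fold change is given ± its SE with an adjusted p from edgeR's quasi-likelihood test (Benjamini-Hochberg over all genes tested), called at an adjusted p under 0.05.

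In unexposed animals, 6 of the 9 members were lower in testis than in ovary and 2 were higher, in F1 controls and in F2 from control parents. All TET genes, Tdg, Dnmt1 and Dnmt3a had the lower testis level, and Dnmt3l and Uhrf1 the higher. The 2 tissues differ in most genes: 85.4% of 20044 genes were called in F1 controls and 85.1% in F2, so 8 of 9 called members is close to that background. Libraries of the tissues were apart for 9 of 9 members in F1 and 8 of 9 in F2, where 85.4% and 89.1% of genes were apart. The median log2 difference of the 9 members was -1.67 in F1 and -1.88 in F2, against 0.00 and -0.01 over all genes tested. Sex, age and tissue move together in this comparison and cannot be told apart.

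Levels between genes are compared per kilobase of exon, on a CPM scale shared by both tissues, in F2 from control parents. In testis Uhrf1 was highest at 31.9 ± 1.92 CPM per kb, followed by Dnmt1 at 12.5 ± 1.16. Dnmt3a (2.25 ± 0.123), Dnmt3b (2.21 ± 0.163) and Dnmt3l (2.01 ± 0.980) overlapped each other, with the lowest Dnmt3l library at 1.18, and so did Tet3 (1.22 ± 0.0570) and Tdg (1.16 ± 0.0911). Tet2 followed at 0.667 ± 0.0613, and Tet1 was lowest at 0.221 ± 0.0377. The plot of levels per kilobase shows that in ovary the order was different. Dnmt1 led there at 26.8 ± 2.89 CPM per kb and overlapped Uhrf1 at 21.3 ± 5.95. Dnmt3a stood at 15.1 ± 0.684 and Tet3 at 10.6 ± 0.467, each apart from its neighbours. Tdg (4.28 ± 0.475) and Tet2 (4.19 ± 0.166) overlapped, then came Dnmt3b at 2.32 ± 0.361, Tet1 at 1.30 ± 0.174 and Dnmt3l, lowest, at 0.779 ± 0.192. The tables also hold Tdg-ps2, named as a pseudogene of Tdg, at 33.1 CPM per kb in ovary and 6.86 in testis in these groups. Reads of the 2 entries may be split, so the level and place of Tdg are uncertain.

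**Figure D1:**
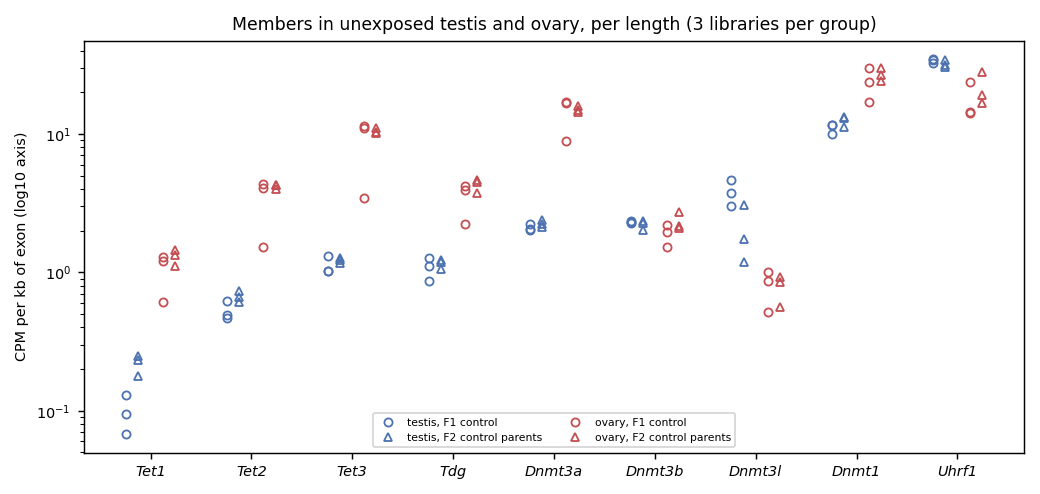
Level of each member in CPM per kilobase of exon (log10 axis) in unexposed testis and ovary libraries of F1 controls (circles) and F2 from control parents (triangles). Dnmt3l is the lowest member in ovary and Tet1 the lowest in testis, and Uhrf1 is the highest in testis.

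Among the erasers, Tet1, the member with the longest exons, was lower in testis by 3.41 ± 0.32 on the log2 scale in F1 (adjusted p = 4.48e-07) and by 2.55 ± 0.30 in F2 (adjusted p = 4.23e-06). Tet2 gave -2.63 ± 0.32 and -2.64 ± 0.31, Tet3 -2.94 ± 0.35 and -3.10 ± 0.35, and Tdg -1.67 ± 0.24 and -1.88 ± 0.24. The size of the Tdg difference is uncertain, since reads may be split with Tdg-ps2. Tdg-ps2 was also lower in testis, at 6.99 against 28.1 CPM per kb in F1 controls. Of the writers, Dnmt3a, which together with Dnmt3l sets imprints in germ cells, gave -2.75 ± 0.21 and -2.74 ± 0.21, and Dnmt1 -1.08 ± 0.18 and -1.10 ± 0.18. Dnmt3l was higher in testis by 2.26 ± 0.37 in F1 (adjusted p = 8.56e-05) and 1.37 ± 0.36 in F2 (adjusted p = 0.00362). Uhrf1 was higher by 0.97 ± 0.21 (adjusted p = 0.00099) and 0.59 ± 0.21 (adjusted p = 0.0208). Its F2 call was lost without testis control library C (adjusted p = 0.0613), ovary control library A (0.0898) or ovary control library C (0.0703). Dnmt3b, at 0.30 ± 0.17 (adjusted p = 0.125) and -0.07 ± 0.17 (adjusted p = 0.721), was not called. In F1 it passed under DESeq2 (0.56, adjusted p = 0.00111), with the exon-length offset (0.52, adjusted p = 0.00552) and in a fit of all 54 libraries (0.29, adjusted p = 0.0196). The scaling matters here: with library totals alone the median of all genes moved to -0.54 in F1 and -0.58 in F2. Uhrf1 then read 0.43 (adjusted p = 0.0906) and 0.02 (adjusted p = 0.933), and relative to that median 0.96 and 0.60. Dnmt3b read -0.24 (adjusted p = 0.225) and -0.64 (adjusted p = 0.00539), so its sign in F1 flips and in F2 it passed as lower in testis. Relative to that median Dnmt3b read 0.29 and -0.06. RLE size factors gave it 0.57 (adjusted p = 0.00642) and 0.22 (adjusted p = 0.228). Dnmt3l in F2 read 0.80 with library totals and missed the threshold (adjusted p = 0.0594). Dnmt3b has a near-identical relative, Dnmt3c, not analysed here, so reads may be shared between them and its level is uncertain.

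Tet1, an oxygenase expressed in primordial germ cells and early germ cells, had the largest single log2 fold change of the members in testis. In F2 from control parents its libraries A, B and C held 2.95, 2.76 and 2.09 CPM. With a mother of dose 1 they held 0.934, 1.45 and 0.605 CPM, and with a mother of dose 2 1.17, 1.10 and 0.662 CPM. All 6 libraries from exposed mothers lay below all 3 from control parents. Tet1 fell by 1.40 ± 0.27 on the log2 scale with a mother of dose 1 (adjusted p = 0.0224) and by 1.41 ± 0.27 with a mother of dose 2 (adjusted p = 0.0142). It was the member called in each of these comparisons, where 0.816% and 1.70% of 19241 genes were called. DESeq2 also called Tet1 and no other member in both, with 3.58% and 5.25% of genes called.

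**Figure D2:**
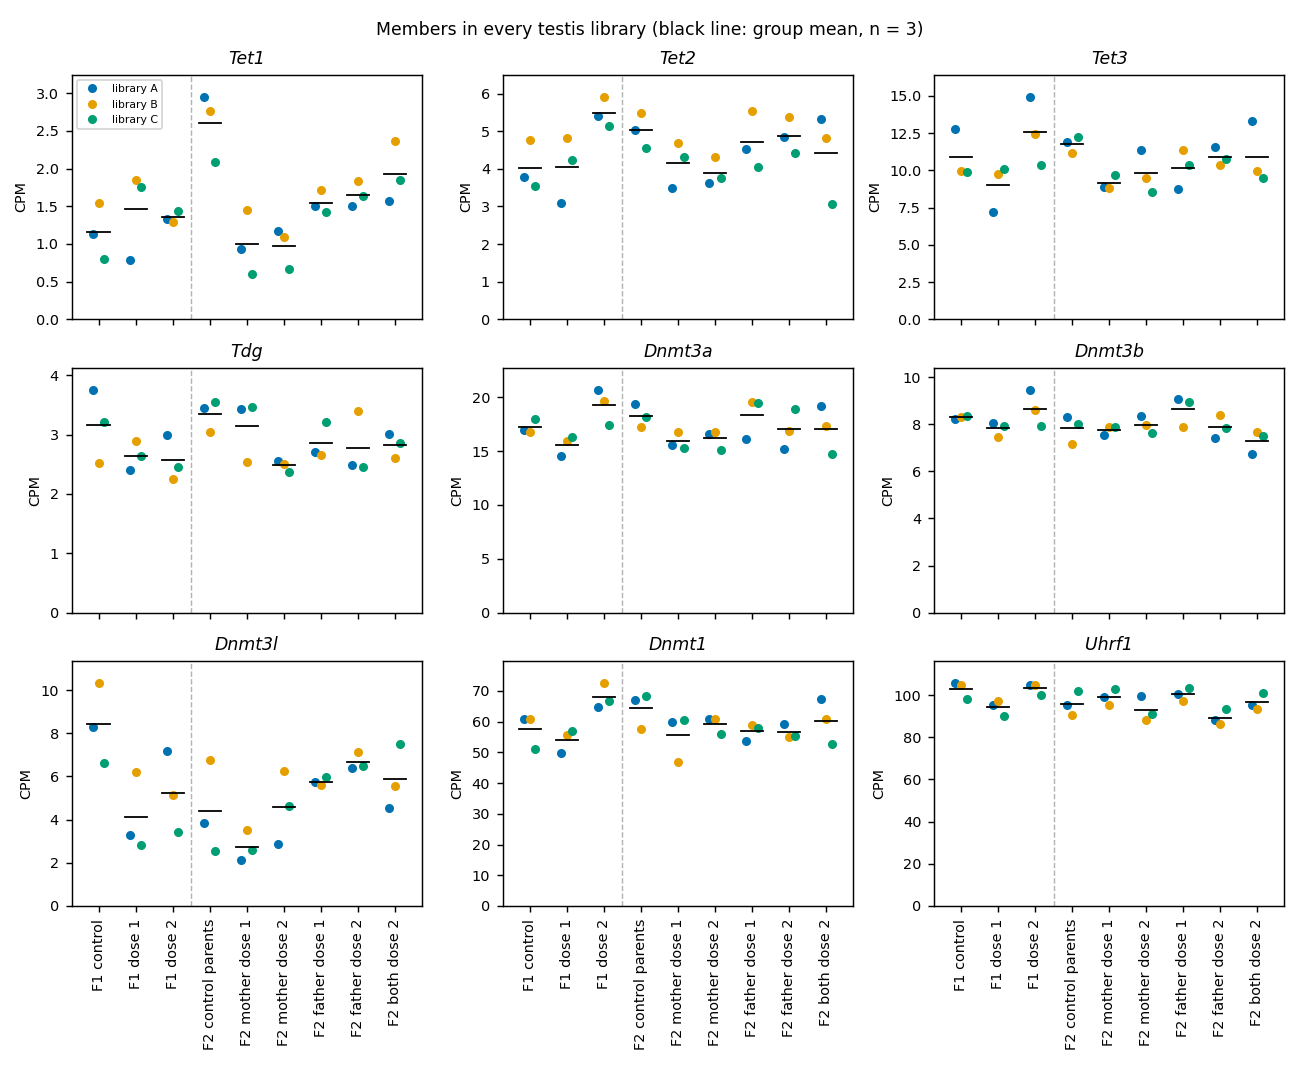
Level of each member in CPM in every testis library, by group, with a black line at the group mean (n = 3) and the generations parted by a dashed line. Tet1 lies between 2.09 and 2.95 CPM in F2 from control parents and at 1.45 CPM or less in F2 with an exposed mother.

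The father crosses lay between. Tet1 libraries held 1.502, 1.71 and 1.42 CPM with a father of dose 1 and 1.497, 1.83 and 1.63 CPM with a father of dose 2. These too lay below the controls without overlap, at -0.75 ± 0.26 (adjusted p = 0.116) and -0.66 ± 0.26 (adjusted p = 0.129). With both parents of dose 2 the libraries held 1.57, 2.36 and 1.85 CPM, which overlapped the controls (-0.44 ± 0.26, adjusted p = 0.315). Whether the father and mother crosses differ was tested directly: Tet1 was 0.65 ± 0.28 above the mother cross at dose 1 (adjusted p = 0.286) and 0.75 ± 0.28 at dose 2 (adjusted p = 0.565), and neither was called. Over the 6 F2 groups Tet1 was called (adjusted p = 0.0146, with 6.03% of genes called), and DESeq2 called Dnmt3l with it (16.8%). The 5 comparisons with control parents share the same 3 control libraries.

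The F2 controls were themselves high. Tet1 libraries of F1 controls held 1.14, 1.54 and 0.800 CPM, below each F2 control library, and the difference of 1.17 ± 0.30 passed the test (adjusted p = 0.0125), where 14.5% of 19467 genes were called. DESeq2 called Dnmt3l as well as Tet1 there (19.1% of genes). F1 dose 1 libraries held 0.782, 1.85 and 1.76 CPM and F1 dose 2 libraries 1.324, 1.29 and 1.44 CPM, around the F1 controls (0.36 ± 0.33, adjusted p = 0.841, and 0.22 ± 0.34, adjusted p = 0.718). The mean of F2 controls, 2.60 ± 0.452 CPM, is the highest of the 9 testis groups, and those of mothers of dose 2 (0.976 ± 0.275) and dose 1 (0.997 ± 0.426) are the lowest, with F1 controls next at 1.16 ± 0.372.

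Tet1 is a rare transcript in testis, counted 22 to 112 times per library, and single libraries decide the calls. Without control parents library A it read -1.28 (adjusted p = 0.135) for a mother of dose 1 and -1.31 (adjusted p = 0.0814) for dose 2. Without mother dose 1 library A or C it read -1.36 (adjusted p = 0.109) and -1.13 (adjusted p = 0.0977), and without mother dose 2 library C -1.19 (adjusted p = 0.0712). The higher level of F2 over F1 controls read 0.97 without F1 control C (adjusted p = 0.0901) and 1.08 without F2 control A (adjusted p = 0.0531).

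Somatic cell markers also differed between testis groups. The summed level of 10 of 10 Leydig cell markers was 1556 to 1649 CPM in F2 controls, 1328 to 1497 with a mother of dose 1, 909 to 1226 with a mother of dose 2, 1070 to 1240 and 1143 to 1200 with a father of dose 1 and dose 2, 988 to 1044 with both parents exposed, and 1233 to 1283 in F1 controls. F2 controls were highest for Tet1 and for these markers. Among exposed F2 groups mean Tet1 was highest with both parents exposed (1.93 CPM), and the Leydig sums were highest with a mother of dose 1. For the 10 macrophage markers it was 118 to 123 CPM in F2 controls, 105 to 112 and 84.0 to 89.9 with mothers of dose 1 and dose 2, 83.5 to 88.5 and 90.2 to 105 with fathers, 82.6 to 92.8 with both parents, and 92.3 to 127 in F1 controls. For the 10 Sertoli cell markers it was 796 to 1069 in F2 controls and 777 to 914 and 796 to 880 in the mother groups, which overlap them, 891 to 941 and 759 to 788 in the father groups and 686 to 779 with both parents, and none of these markers was at 0. The 16 spermatogonia markers, at 635 to 727 CPM in F2 controls, 656 to 674 and 675 to 720 in the mother groups, overlapped between groups. The part of cell makeup in the Tet1 result was not tested, and in bulk tissue fewer cells of a type and less RNA per cell cannot be told apart. With an offset for exon length in the fit, Tet1 kept its calls at -1.23 (adjusted p = 0.0409, with 1.09% of genes called) and -1.40 (adjusted p = 0.0129, with 3.22%).

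The other erasers were not called in any testis comparison. Tet2, which works mainly on active chromatin, ranged over comparisons from -0.37 to 0.44 on the log2 scale, Tet3, the TET enzyme of the zygote, from -0.38 to 0.47, and Tdg from -0.43 to 0.16. With a mother of dose 2, Tdg libraries held 2.56, 2.51 and 2.38 CPM against 3.45, 3.05 and 3.55 in controls, with no overlap (-0.43 ± 0.16, adjusted p = 0.159). Tet3 held 8.89, 8.84 and 9.68 CPM with a mother of dose 1 against 11.9, 11.2 and 12.2 in controls, also with no overlap (-0.38 ± 0.13, adjusted p = 0.166). Libraries of the groups were apart for 3 members with a mother of dose 1 (Tet1, Tet3 and Dnmt3a) and for 4 with a mother of dose 2 (Tet1, Tet2, Dnmt3a and Tdg), all lower, where 25.5% and 21.6% of all genes were apart. The median log2 fold change of the 9 members was -0.22 and -0.18 in these comparisons, against 0.00 and 0.00 over all genes.

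In the father and both-parent crosses 0 of 9 members were called by edgeR in testis, with 3.97%, 5.33% and 4.59% of genes called for a father of dose 1, a father of dose 2 and both parents. At an unadjusted p under 0.05 the count of members was 1, 1 and 0, with 18.4%, 24.3% and 22.1% of all genes, and DESeq2 called 0 in each, with 6.36%, 11.3% and 8.46% of genes called. In each of the 3 a single member was apart from the controls, Tet1 in the father crosses and Tdg with both parents, where 23.0%, 28.9% and 19.9% of genes were apart.

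Dnmt3l, the catalytically silent partner of the de novo enzymes that is needed for imprints and for transposon silencing in male germ cells, varied most between testis groups, with its highest group mean 3.07 times its lowest. F1 control libraries held 8.295, 10.3 and 6.62 CPM, F1 dose 1 libraries 3.28, 6.21 and 2.82 CPM, and F1 dose 2 libraries 7.17, 5.14 and 3.41 CPM. Dose 1 lay below the controls with no overlap and dose 2 overlapped them. The differences were -1.02 ± 0.35 (adjusted p = 0.478) and -0.69 ± 0.34 (adjusted p = 0.256), and neither was called.

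In F2 testes Dnmt3l was lowest with a mother of dose 1, at 2.12, 3.50 and 2.59 CPM, and highest with a father of dose 2, at 6.40, 7.15 and 6.48 CPM. F2 controls ranged from 2.57 to 6.75 CPM across the libraries, and with a father of dose 1 the libraries held 5.74, 5.60 and 5.96 CPM. Father and mother crosses at dose 1 did not overlap, and the father cross was higher by 1.08 ± 0.32, which missed the threshold (adjusted p = 0.127). DESeq2 called that difference (adjusted p = 0.0193, with 2.56% of genes called), and edgeR on the 6 compared libraries alone gave it an adjusted p of 0.00905. In that comparison edgeR called 0 of 9 members and 1.16% of genes, and 2 members reached an unadjusted p under 0.05, as did 15.1% of genes. Dnmt3l and Dnmt3b were apart, with 25.9% of genes apart. At dose 2 edgeR called 0 of 9 members and 0.109% of genes between the crosses, 1 member and 7.14% of genes had an unadjusted p under 0.05, DESeq2 called 0 (0.423% of genes), and Tet1, Tet2 and Dnmt3l were apart, all higher with the exposed father, with 16.7% of genes apart. Dnmt3l of F2 controls against F1 controls read -0.94 ± 0.34 (adjusted p = 0.0656).

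Dnmt3a and Dnmt3b were stable in testis: their highest group means were 19.2 CPM for Dnmt3a and 8.65 CPM for Dnmt3b, against 15.6 and 7.29 CPM in their lowest groups, and their log2 fold changes ranged from -0.22 to 0.29 and from -0.12 to 0.16. Dnmt3a libraries held 19.4, 17.3 and 18.2 CPM in F2 controls, 15.6, 16.8 and 15.3 CPM with a mother of dose 1 and 16.6, 16.8 and 15.1 CPM with a mother of dose 2. Both mother groups lay below the controls without overlap, at -0.22 ± 0.11 (adjusted p = 0.313) and -0.18 ± 0.11 (adjusted p = 0.413). Of the maintenance pair, Uhrf1 had the narrowest range of all members in testis, from -0.12 to 0.12, with 86.3 to 105.5 CPM across 27 libraries.

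In F1 testes none of the 9 members was called by edgeR at dose 1 (0.0317% of 18923 genes called) or dose 2 (2.21%), or between the doses (0.227%). At an unadjusted p under 0.05 the counts were 1, 2 and 4 of 9, beside 8.55%, 23.6% and 20.3% of all genes, and DESeq2 called 0, 0 and 1, with 0.714%, 11.3% and 7.95% of genes called. Over the 3 F1 groups edgeR called 0 members (0.513% of genes), 3 and 21.8% of genes had an unadjusted p under 0.05, and DESeq2 called Dnmt3l (10.9%). The members' medians were -0.12, 0.15 and 0.29, against 0.00, 0.01 and 0.00 over all genes. At dose 1, 3 members were apart from controls, all lower (Dnmt3a, Dnmt3b and Dnmt3l, with 13.0% of genes apart). At dose 2, Tet2 and Dnmt1 were apart and higher (35.4% of genes apart), and between the doses 5 members were apart, all higher at dose 2 (Tet2, Tet3, Dnmt1, Dnmt3a and Uhrf1, with 25.0% of genes apart).

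Dnmt1 shows the pattern. Its libraries held 60.8, 61.0 and 51.1 CPM in F1 controls, 49.7, 55.6 and 57.0 at dose 1 and 64.9, 72.4 and 66.8 at dose 2. Dose 2 lay above both other groups, by 0.24 ± 0.09 over controls (adjusted p = 0.153) and by 0.32 ± 0.09 over dose 1 (adjusted p = 0.122; DESeq2, adjusted p = 0.0356, with 7.95% of genes called). The long-minus-short index moved in the same direction: it was 0.194, 0.170 and -0.042 in F1 dose 2 libraries, -0.532, -0.029 and -0.103 at dose 1 and -0.212, -0.141 and -0.396 in controls. With the exon-length offset the difference between doses was 0.19 for Dnmt1 (adjusted p = 0.18), 0.27 for Tet3 in place of 0.47, 0.10 for Dnmt3a in place of 0.29 and 0.26 for Tet2 in place of 0.42.

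In F1 ovaries 0 of 9 members were called at either dose or between doses, as were 0% of 17168 genes in all 3 comparisons, with edgeR. At an unadjusted p under 0.05 the counts of members were 0, 1 and 0, those of all genes 904, 2053 and 809 (5.27%, 12.0% and 4.71%), and DESeq2 called 0 members and 0.481%, 1.97% and 1.54% of genes. Over the 3 groups edgeR called 0, 1 member and 7.43% of genes had an unadjusted p under 0.05, and DESeq2 called 0 (2.45% of genes). Dnmt3l, at 3.25, 1.64 and 2.76 CPM in controls, 1.28, 1.64 and 2.52 CPM at dose 1 and 1.35, 0.854 and 1.20 CPM at dose 2, had the largest log2 fold change. Dose 2 lay below the controls with no overlap (-1.17 ± 0.36, adjusted p = 0.411; -0.95 without control A). The summed level of 16 of 16 oocyte markers was 785 to 955 CPM in these controls and 511 to 725 at dose 2, with none at 0 and no overlap, and its part in the Dnmt3l value was not tested. For Dnmt3l a fit on all 27 ovary libraries gave an adjusted p of 0.0271. Tet2 was apart as well, higher at dose 2 (0.46 ± 0.32, adjusted p = 0.485), and 20.8% of genes were apart. Dose 1 against control and the doses against each other had no member apart, with 11.3% and 10.6% of genes apart.

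The F1 control group in ovary rests on a library that stands apart for several members. Tet3 libraries A, B and C held 49.1, 160 and 157 CPM, Tet2 16.9, 44.7 and 47.8 CPM, and Dnmt3a 106.9, 199.6 and 202 CPM. Library A was the lowest of 27 ovary libraries for each of these 3 genes. It was also the lowest for Tet1 (10.65 CPM), Dnmt1 (129.5 CPM) and Dnmt3b (8.016 CPM). Without it the dose 2 values of Tet3, Tet2 and Dnmt3a were 0.00, 0.12 and -0.07, in place of 0.38, 0.46 and 0.17.

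In F2 ovaries the lowest values of the TET genes and Tdg came with both parents of dose 2. Tdg, the glycosylase that removes oxidised methylcytosine, was the member called: its libraries held 12.0, 14.1 and 9.24 CPM against 15.96, 19.6 and 19.0 CPM in controls. All 3 lay below all controls, and Tdg fell by 0.63 ± 0.13 (adjusted p = 0.0474), where 0.688% of 17454 genes were called. Tet3 held 107, 114 and 73.4 CPM against 145, 146 and 156 CPM, with no overlap, and read -0.60 ± 0.14, which missed the threshold (adjusted p = 0.0524). Tet1 held 17.1, 18.2 and 12.3 CPM against 25.4, 23.0 and 19.2 CPM, again with no overlap (-0.51 ± 0.17, adjusted p = 0.0901). These 3 members were apart from controls, where 26.5% of genes were. The other 6 ranged from -0.31 to -0.14, and the median of the 9 was -0.27 against 0.01 over all genes. Cell markers differed between the same groups without overlap: the sum of 8 of 8 luteal markers was 9331 to 10966 CPM with both parents exposed and 7158 to 9053 in controls, and that of 10 of 10 Leydig cell markers, steroidogenic genes among them, was 17099 to 18000 and 12497 to 15740, with none at 0. Both lists hold Lhcgr, Prlr, Star and Hsd3b1, so their sums are not separate readings. The 16 spermatogonia markers, up to 3 of them at 0, summed to 183 to 229 and 259 to 283 CPM, while oocyte (788 to 918 and 765 to 928) and granulosa cell sums (4022 to 5779 and 5120 to 7069) overlapped. Their part in the Tdg result was not tested.

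**Figure D3:**
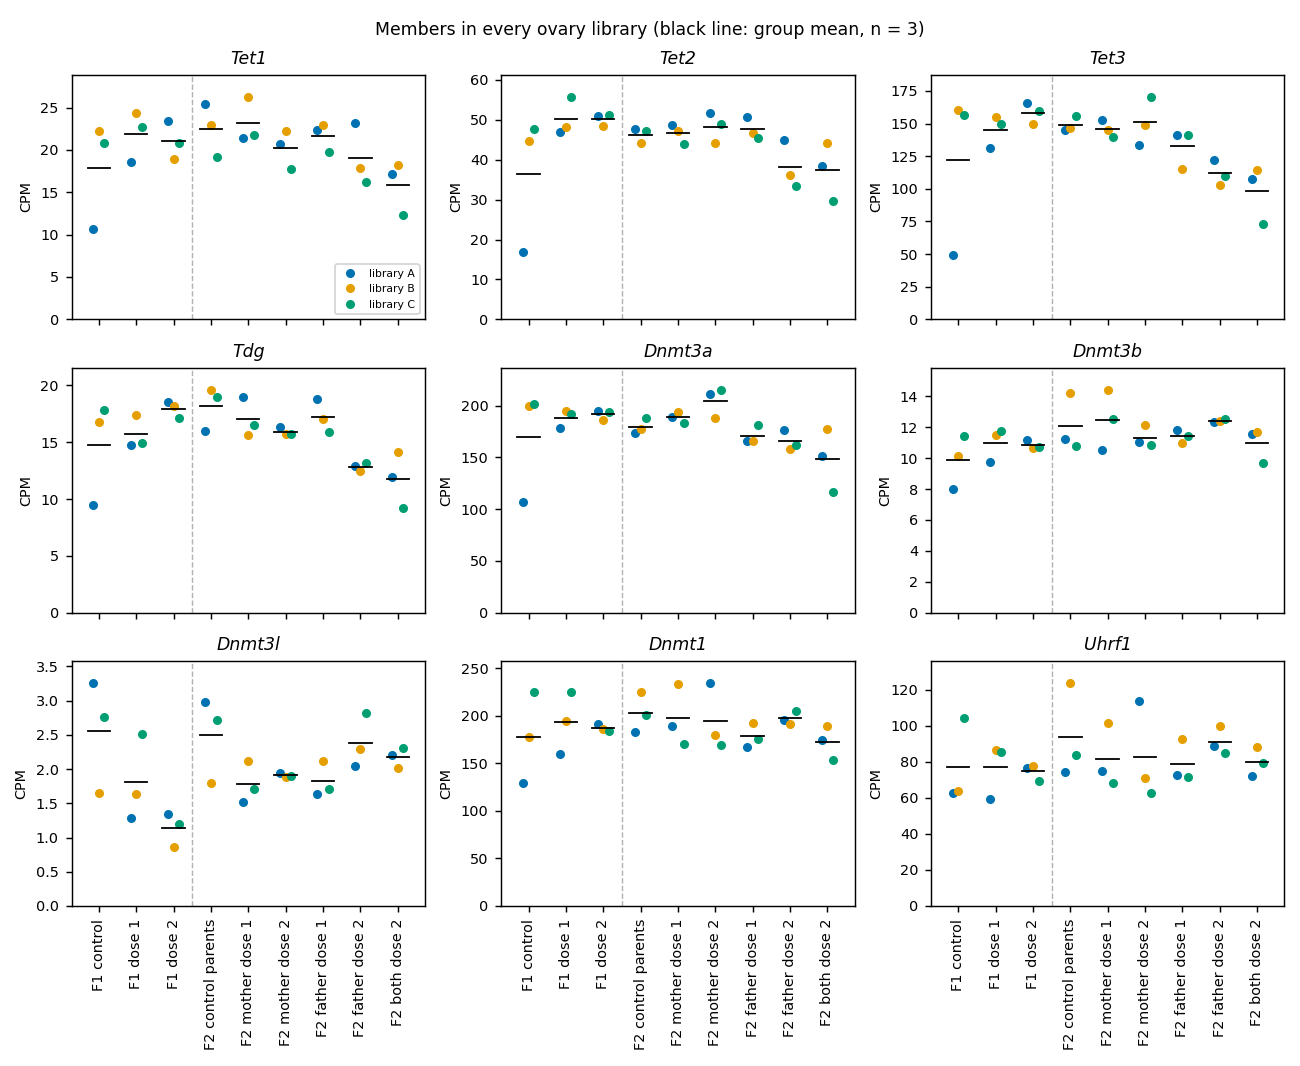
Level of each member in CPM in every ovary library, by group, with a black line at the group mean (n = 3) and the generations parted by a dashed line. F1 control library A is lowest for Tet1, Tet2, Tet3, Dnmt1, Dnmt3a and Dnmt3b. Tdg lies at 14.1 CPM or less in F2 with both parents or the father of dose 2.

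The Tdg call did not hold under most other settings. It was lost without each of control A (adjusted p = 0.0609), control B (0.0724), control C (0.183), both-parent library A (0.067) and both-parent library C (0.205), and kept without both-parent library B (adjusted p = 0.0269). Without library B edgeR called 5 members, Tet1, Tet2, Tet3, Dnmt3a and Tdg, and 8.16% of genes. DESeq2 called Tdg, Tet1 and Tet3, with 11.8% of genes called. Its log2 fold change in these fits ranged from -0.79 to -0.49. Reads of Tdg and Tdg-ps2 may be split, and the level of Tdg is uncertain for that reason. Tdg-ps2 lay at 35.7 to 52.0 CPM in ovary and read -0.19 ± 0.11 in the same comparison (adjusted p = 0.292).

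A father of dose 2 gave a like but smaller set of values. Tdg libraries held 12.9, 12.5 and 13.2 CPM and Tet3 libraries 122, 103 and 110 CPM, both below all controls. Tdg read -0.51 ± 0.13 (adjusted p = 0.184) and Tet3 -0.42 ± 0.14 (adjusted p = 0.2). Here edgeR called 0 of 9 members and 0.00573% of genes, 3 members and 15.8% of genes had an unadjusted p under 0.05, and DESeq2 called Tdg (adjusted p = 0.032, with 2.19% of genes called). These 2 members were apart, where 20.9% of genes were.

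Both groups hold libraries in which long transcripts were low relative to short ones, as measured against the ovary mean. The long-minus-short index was -0.222, -0.086 and -0.648 with both parents exposed and 0.005, -0.350 and -0.255 with a father of dose 2, against 0.057, 0.029 and 0.196 in F2 controls. Over 27 ovary libraries Pearson's r between the index and log2 CPM was 0.976 for Tet3, 0.958 for Tet2, 0.943 for Dnmt3a, 0.863 for Tdg and 0.826 for Tet1. It was 0.596 for Dnmt1, 0.429 for Dnmt3b, 0.120 for Uhrf1 and -0.486 for Dnmt3l. Without the 2 libraries farthest from the median index it was 0.911 for Tet3, 0.883 for Tet2, 0.817 for Dnmt3a, 0.717 for Tdg, 0.474 for Tet1 and 0.137 for Dnmt1. For Dnmt3b it turned negative (-0.315), and it was -0.157 for Uhrf1 and -0.364 for Dnmt3l. These values describe libraries that share depth and RNA preparation with the genes compared. Tet1, Tet3, Dnmt3a and Tet2 have exons of 14.376, 11.739, 9.913 and 9.203 kb, far above the median gene of 2518 bases. Dnmt1 has 6.301 kb, Dnmt3b 4.326 kb, Uhrf1 3.667 kb, Tdg 3.533 kb and Dnmt3l 2.67 kb.

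**Figure D4:**
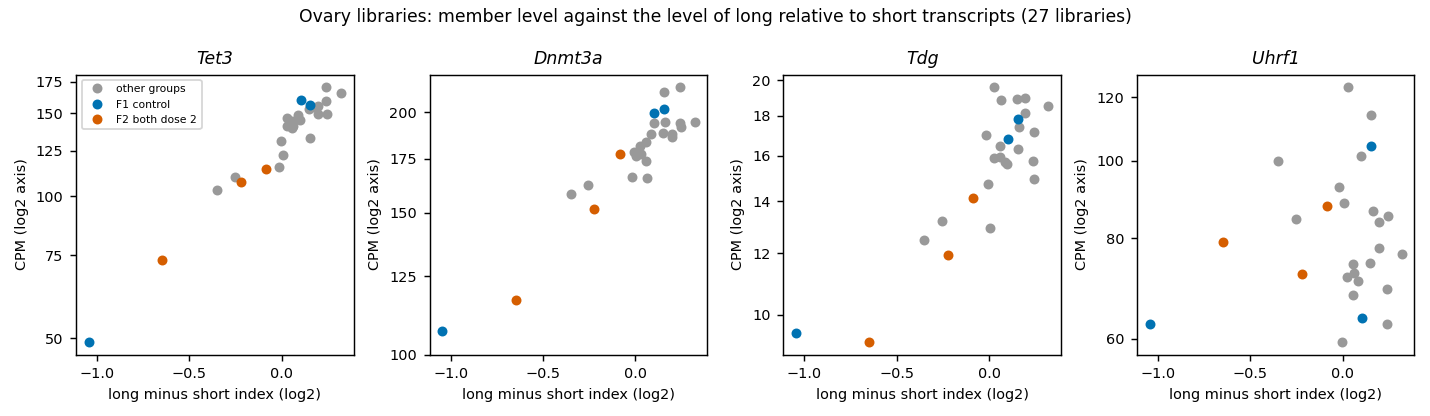
Level of Tet3, Dnmt3a, Tdg and Uhrf1 (CPM, log2 axis) against the long-minus-short index in 27 ovary libraries, with F1 controls and F2 of both parents of dose 2 in colour. Tet3 and Dnmt3a rise along the index, from -1.044 in F1 control library A, and Uhrf1 does not.

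With the exon-length offset in the fit, 0% of genes were called with both parents of dose 2. Tet3 read -0.30 (adjusted p = 0.0956) in place of -0.60 and Tet1 -0.18 in place of -0.51. Tet2 read -0.05 in place of -0.31, and Dnmt3a 0.00 in place of -0.27. Tdg kept its size at -0.62 and missed the threshold (adjusted p = 0.0687).

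In the remaining F2 ovary comparisons edgeR called 0 of 9 members. For a mother of dose 1, a mother of dose 2 and a father of dose 1 it called 0% of genes, the members at an unadjusted p under 0.05 numbered 1, 0 and 1 (9.20%, 5.83% and 9.63% of all genes), and DESeq2 called 0 (0.640%, 0.0829% and 0.440% of genes). No member was apart for a mother of dose 1 (14.0% of genes apart). Dnmt3a was apart and higher for a mother of dose 2 (0.19 ± 0.11, adjusted p = 0.881, with 10.5% of genes apart), and Tet3 apart and lower for a father of dose 1 (-0.16 ± 0.14, adjusted p = 0.762, with 15.3%). Between a father and a mother of dose 1, 0 members and 4.93% of genes had an unadjusted p under 0.05, DESeq2 called 0 (0.0133% of genes), and Dnmt3a was apart and lower with the exposed father (11.4% of genes apart). Between a father and a mother of dose 2, where 0.00573% of genes were called, Tet3, Dnmt3a and Tdg were apart and lower with the exposed father and Dnmt3b and Dnmt3l higher, where 25.2% of genes were apart. The values were -0.44 ± 0.14 for Tet3 (adjusted p = 0.124) and -0.32 ± 0.11 for Dnmt3a (adjusted p = 0.152), 4 members and 20.4% of genes had an unadjusted p under 0.05, and DESeq2 called 0 (6.29% of genes). Over the 6 F2 groups edgeR called 0 members, 5 and 26.3% of genes had an unadjusted p under 0.05, and DESeq2 called Tdg, Tet3 and Dnmt3a (21.3%). F2 against F1 controls in ovary had 0 members called and 1 with an unadjusted p under 0.05 (14.0% of genes), and DESeq2 called 0 (0.704% of genes). The largest value there was 0.35 ± 0.23 for Tet2 (adjusted p = 0.479), and none was apart (11.8% of genes apart).

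**Figure D5:**
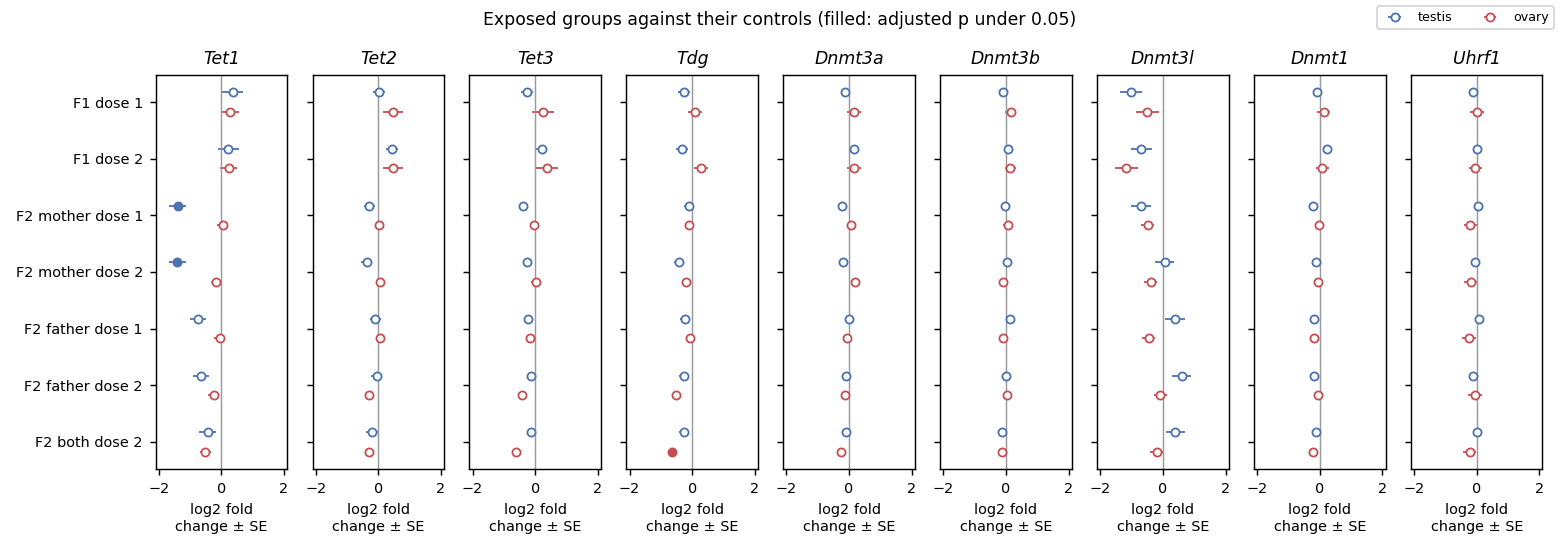
Log2 fold change ± SE of each member in exposed groups against their controls, in testis and ovary, filled where the adjusted p is under 0.05. The filled points are Tet1 in testis with a mother of dose 1 (-1.40) and dose 2 (-1.41) and Tdg in ovary with both parents of dose 2 (-0.63).

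Whether an exposure effect differed between testis and ovary was tested directly in 7 comparisons, by an interaction in a fit of all 54 libraries, and 0 of 9 members were called in each. Tet1 came nearest, at -1.45 ± 0.37 testis minus ovary with a mother of dose 1 (adjusted p = 0.093, 0.101% of 20864 genes called) and -1.28 ± 0.37 with a mother of dose 2 (adjusted p = 0.176, 0.0336% called). At an unadjusted p under 0.05 these 2 comparisons and F1 dose 2 each held 1 member, beside 9.81%, 9.59% and 13.9% of all genes. The member in F1 dose 2 was Tdg (-0.58 ± 0.24, adjusted p = 0.246, 2.19% called). The other 4 comparisons held 0, beside 9.52% of all genes for F1 dose 1, 10.8% and 16.7% for fathers, and 17.4% for both parents. At the adjusted threshold 0.0288% of genes were called for F1 dose 1, 0.105% and 0.772% for a father of dose 1 and dose 2, and 1.88% for both parents. DESeq2 was not run on this difference. In ovary, Tet1 libraries held 21.4, 26.3 and 21.7 CPM with a mother of dose 1 and 20.7, 22.2 and 17.7 CPM with a mother of dose 2, around the controls (0.04 ± 0.17 and -0.16 ± 0.17).

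Dnmt1 and Uhrf1, which act together behind the replication fork, moved together across ovary libraries. Uhrf1 ranged there from 59.5 to 123.4 CPM, with 74.3, 123.4 and 83.9 CPM in the 3 F2 control libraries, and Dnmt1 held 182.9, 225.3 and 200.7 CPM in the same libraries. Pearson's r of their log2 CPM was 0.799 over 27 ovary libraries, 0.781 without the 2 farthest, and 0.296 over 27 testis libraries. By the same measure the genes most like Uhrf1 in ovary were Mcm10 (0.931), Chaf1a (0.931) and Mcm2 (0.903), known in replication and in chromatin assembly behind it. Those most like Dnmt1 were Ticrr (0.888), Cad (0.887) and Pole (0.884). They were picked among 13816 genes with a mean of at least 1 CPM, and the libraries share depth and preparation.

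Tet3, Tet2 and Dnmt3a were most like genes of other kinds in ovary. Tet3 was most like Ddx17 (0.979), N4bp2 (0.979) and Trim44 (0.977), Tet2 like Atrx (0.980), and Dnmt3a like Setd1b (0.974). Tet3 and Dnmt3a had r = 0.936 with each other, and 0.795 without the 2 farthest libraries. With the long-minus-short index Tet3, Tet2 and Dnmt3a had r of similar size (0.976, 0.958 and 0.943), and the part of that trend in their likeness was not tested. In testis likeness was weaker for Tet1, whose nearest genes among 14174 were Dpy19l3 (0.698), Phldb2 (0.674) and Ky (0.669), and for Dnmt3l, whose nearest was Tle6 (0.716). The top 3 changed with the measure. By Spearman's correlation 2 of the 3 stayed for Tet3, Dnmt3a and Uhrf1 in ovary, 1 for Dnmt1 and 0 for Tet2. In testis 2 stayed for Dnmt3l and 0 for Tet1. With Pearson's r of deviations from group means 1 stayed for Uhrf1 and Dnmt1 in ovary and for Tet1 in testis. For Tet2, Tet3 and Dnmt3a in ovary and Dnmt3l in testis 0 stayed.

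Genes that work around the members were counted in 7 lists, which cover base repair after demethylation, TET cofactors, readers of methyl-CpG, maintenance and imprint protection, de novo targeting in germ cells, one-carbon metabolism and S phase. Of 100 of these genes tested in testis, 0 and 1 were called in F1 at dose 1 and dose 2, 0 and 2 for mothers of dose 1 and dose 2, 5 and 7 for fathers, and 3 for both parents. Over all genes the shares were 0.0317% and 2.21%, 0.816% and 1.70%, 3.97% and 5.33%, and 4.59%, so the list counts lie near the background. Of 103 tested in ovary, 1 was called with both parents exposed and 0 in every other comparison with controls. At an unadjusted p under 0.05 these ovary counts were 4 and 13 in F1, 7 and 11 for mothers, 10 and 20 for fathers and 25 for both parents, and DESeq2 called 1, 1, 1, 0, 1, 2 and 13. The shares of all genes at that p were 5.27% and 12.0%, 5.83% to 9.63% for mothers and a father of dose 1, 15.8% for a father of dose 2 and 24.5% for both parents. DESeq2 called 0.481% and 1.97% of all genes in F1, 0.640% and 0.0829% for mothers, 0.440% and 2.19% for fathers and 11.8% for both parents. For the testis comparisons with 0 called, F1 dose 1 and mother dose 1, 10 and 12 had an unadjusted p under 0.05 (8.55% and 17.9% of all genes). DESeq2 called 0 in both, with 0.714% and 3.58% of all genes called.

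The genes called in testis were spread over the lists. With a father of dose 1, Zfp57, which protects imprints from demethylation, fell by 0.83 ± 0.13 (adjusted p = 0.00118). Bhmt and Ahcy, which act in the methionine cycle that feeds methylation, fell, at -1.06 ± 0.18 (adjusted p = 0.0058) and -1.13 ± 0.27 (adjusted p = 0.0284), while Tex15, a germ cell factor for transposon silencing, rose by 0.56 ± 0.13 (adjusted p = 0.0258) and Mbd6 by 0.42 ± 0.10 (adjusted p = 0.0218). With a father of dose 2, Bhmt fell by 0.73 ± 0.18 (adjusted p = 0.037), Parp1 by 0.35 ± 0.07 (adjusted p = 0.013) and Cxxc1 by 0.23 ± 0.06 (adjusted p = 0.0488). Tex15 rose by 0.59 ± 0.13 (adjusted p = 0.0224), Tyms by 0.72 ± 0.18 (adjusted p = 0.0306), Mbd4, a glycosylase like Tdg, by 0.45 ± 0.10 (adjusted p = 0.0217), and Ccna2 by 0.38 ± 0.11 (adjusted p = 0.0485).

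Elsewhere in testis, Apex1, the endonuclease that acts after Tdg, fell by 0.54 ± 0.10 in F1 dose 2 (adjusted p = 0.0409). With a mother of dose 2 Idh1, an enzyme that makes the TET cosubstrate, fell by 0.46 ± 0.10 (adjusted p = 0.0215) and Ccna2 rose by 0.43 ± 0.11 (adjusted p = 0.0488). With both parents of dose 2 Idh2, its mitochondrial counterpart, fell by 0.73 ± 0.15 (adjusted p = 0.0123), and Ccna2 and Rfc4 rose by 0.43 ± 0.11 and 0.49 ± 0.14 (adjusted p = 0.0311 and 0.0461). The shared F2 controls were themselves below F1 controls for Ccna2 (-0.50 ± 0.12, adjusted p = 0.011) and Rfc4 (-0.52 ± 0.14, adjusted p = 0.0153). In ovary with both parents exposed, Usp7, a deubiquitinase that stabilises DNMT1 and UHRF1, fell by 0.31 ± 0.06 (adjusted p = 0.0474). In each list the genes not called were the majority, and the median of each list with a call lay between -0.22 and 0.15.

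Between unexposed tissues of F1, list genes followed the members in part. Of 14 genes for de novo targeting, 8 were higher in testis and 3 lower, led by Mael (8.86 ± 0.22), Tdrd9 (5.41 ± 0.24) and Piwil2 (5.33 ± 0.20), all of the piRNA pathway. Of 12 TET cofactors and recruiters, 7 were lower in testis and 2 higher, with Idh1 at -3.81 ± 0.23 and Idh2 at -3.89 ± 0.16. Of 10 methyl-CpG readers, 6 were lower and 0 higher, with Uhrf2, the relative of Uhrf1, at -1.89 ± 0.15. Of 14 genes for maintenance and imprint protection, 8 were lower and 4 higher. The oocyte genes Dppa3 (-6.53 ± 0.47) and Nlrp5 (-3.07 ± 0.19) were among those lower in testis, and Usp7 (1.78 ± 0.13) was among the higher. As for the members, 85.4% of all genes were called in this comparison.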

How the data were processed

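Testis and ovary mRNA was sequenced in 54 libraries. The deposited values are raw read counts per gene, one table per tissue. For alignment and counting the submitters' processing notes list featureCounts 2.0.3 and TopHat2 2.1.1 with Bowtie2 2.4.5, on build mm39. Whether strand was used in counting, and which annotation, was not stated, so antisense reads may be included. All columns were matched to samples by their labels. Entries without a gene ID (133) held 0.319 to 0.377% of counts in testis and 0.0591 to 0.0861% in ovary, and were kept.

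Counts were tested with edgeR 4.0.16 (R 4.3.3; TMM scaling, a minimum count of 10, quasi-likelihood, Benjamini-Hochberg over all genes), with 1 fit per tissue and generation for exposures. Genes named from the lists were at most 4 per list and comparison, by smallest p past the threshold, and like genes were the 3 with the highest Pearson r. Members and lists were chosen with earlier results of these data known. The exon-length offset (lowess span 0.3) and the tests of tissue differences were chosen after seeing the data. Alternatives were RLE or library-total scaling, no filter, DESeq2 1.42.0, other sets of libraries, leaving out each library, and a replicate block. Exon lengths came from GENCODE M21 and matched 96.8% of entries. On simulated counts edgeR recovered 67.2% of genes changed 2-fold in the testis comparison of a mother of dose 1 (19241 genes), 28.4% in ovary F1 dose 2 (17168 genes) and 64.2% in ovary with both parents of dose 2 (17454 genes).

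Replicate letters are shared between groups, and the labels do not say what a letter marks. Same-letter deviations correlated above 0.1 for every letter in 2 of 24 comparisons, ovary F1 dose 1 against control (0.205, 0.211 and 0.375) and ovary mother of dose 1 (0.226, 0.278 and 0.104), and the block changed no member's call there. Dnmt3c is not analysed here.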

Additional observations from a re-analysis of the deposited data

Results flagged for a closer look

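In 4 cases the exposure effect on a list gene differed between testis and ovary by a test of the difference itself. The test was made in an edgeR fit of all 54 libraries, chosen after seeing the data, with 103 list genes in each of 7 comparisons. For a father of dose 1, a father of dose 2 and both parents of dose 2 it called 1, 2 and 1 list genes. Over all 20864 genes it called 0.105%, 0.772% and 1.88% there. No member of the 9 passed that test. The values given for each tissue come from the separate fits per tissue, so they need not add up to the difference. With a father of dose 1, the imprint protector Zfp57 gave a testis minus ovary difference of -0.91 ± 0.19 (adjusted p = 0.0293), beside -0.83 in testis and 0.08 in ovary. With a father of dose 2, Parp1, a sensor of DNA breaks, gave -0.49 ± 0.10 (adjusted p = 0.0213), beside -0.35 in testis and 0.10 in ovary. Idh2, which makes the TET cosubstrate in mitochondria, gave -0.75 ± 0.19 with a father of dose 2 (adjusted p = 0.042), beside -0.44 in testis and 0.29 in ovary. With both parents of dose 2 Idh2 gave -0.78 ± 0.19 (adjusted p = 0.0266), beside -0.73 in testis and 0.04 in ovary. The father and both-parent comparisons share their control libraries.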

How the results depend on the processing

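No log2 fold change of a member reversed a call under any alternative run. DESeq2 changed the count of members called in 8 comparisons, given here with the share of all genes it called. In testis it became 1 between the F1 doses (Dnmt1, 7.95%) and over the F1 groups (Dnmt3l, 10.9%). It became 1 between father and mother of dose 1 in testis (Dnmt3l, 2.56%). Over the F2 testis groups (16.8%) and in F2 against F1 control testes (19.1%) it became 2, Tet1 and Dnmt3l. In ovary it became 1 with a father of dose 2 (Tdg, 2.19%) and 3 with both parents of dose 2 (Tdg, Tet1 and Tet3, 11.8%). Over the F2 ovary groups it became 3 (Tdg, Tet3 and Dnmt3a, 21.3%). On the compared libraries alone the edgeR count became 0 in testis for a mother of dose 1, 1 between father and mother of dose 1 (Dnmt3l) and 0 in ovary for both parents. With all 27 libraries of the tissue it became 1 in ovary F1 dose 2 (Dnmt3l) and 0 for both parents, and it was 0 for both parents without the filter and with the exon-length offset. Leaving out 1 library at a time, the count ranged from 0 to 1 in testis for a mother of dose 1, a mother of dose 2 and a father of dose 2, from 0 to 2 over the F2 testis groups and in F2 against F1 control testes, and from 0 to 5 in ovary for both parents. The 5 were Tet1, Tet2, Tet3, Dnmt3a and Tdg, without both-parent library B, where 8.16% of genes were called. In testis with a father of dose 2, Dnmt3l was called without control library B (1.06, adjusted p = 0.0187). For the replicate block, the other sets of libraries and the other single libraries left out, shares of all genes are not given. Those counts therefore lack a background. The cause of the moves in these counts was not tested.

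The replicate letters do not pair the samples by the labels. With the replicate block the count became 2 over the F2 testis groups and 2 in F2 against F1 control testes (Tet1 and Dnmt3l), and 0 in ovary for both parents, where Tdg read -0.63 (adjusted p = 0.0551). Tet1 read -1.43 and -1.42 for mothers of dose 1 and dose 2 (adjusted p = 0.00872 and 0.00716). In 6 of 24 comparisons every sample correlated best with its own letter. By library totals the mean of Dnmt3b became 8.19 CPM in testis F1 controls and 12.7 CPM in ovary with a father of dose 2, by more than 1 SD. Low counts limit Tet1 and Tdg in testis (22 to 112 and 77 to 145 per library) and Dnmt3l in ovary (38 to 170).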
